A study of Homo sapiens with 12 samples.

Results

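ALDH1A1, ALDH1A3, DHRS3, CRABP2, RARA, RARG, RXRA and RXRB are 8 genes of retinoic acid synthesis, binding and reception, and all 8 had a row among the 11529 genes in the table. They were taken by gene symbol from the pathway, which was selected on the knockout differences of ALDH1A1 and DHRS3, seen among the largest in these data. For that reason the knockout differences of all 8 genes are given as a description and without a p-value. RNA sequencing covered MDA-MB-468 and MDA-MB-231, which are 2 human triple-negative breast cancer lines, each as control cells (genotype labelled wild type) and as SMARCA4 knockout (KO) cells, with 3 samples in each of the 4 groups. KO cells had received lentiCRISPR-v2, which carries Cas9, with a guide RNA to an early coding exon of SMARCA4, and had been selected with puromycin. They were pools of transduced cells rather than clones. For its control cells the study describes a vector without a targeting guide. Nothing in the labels says that the samples of a group came from separate cultures, so every p-value measures the spread between these samples only, which may be technical. The study asked how these cells changed with the loss of SMARCA4, whose product drives the SWI/SNF chromatin remodeller by hydrolysing ATP.

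Retinoic acid is made from retinol through retinal. Retinol dehydrogenases carry out the first oxidation, and the retinaldehyde dehydrogenases of the ALDH1A family carry out the second, which is irreversible. DHRS3 is a reductase that returns retinal to retinol. CRABP2 binds retinoic acid in the cytosol and delivers it to the retinoic acid receptors (RARs), which bind DNA as heterodimers with retinoid X receptors (RXRs), and CYP26 enzymes break retinoic acid down. ALDH1A1 and ALDH1A3 are also the genes behind the aldehyde dehydrogenase activity used to mark stem-like cells in breast cancer, and DHRS3 is a known retinoic acid target gene.

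The 250 bases before the start of the principal transcript are shown for ALDH1A1, ALDH1A3 and DHRS3, the genes whose levels differed most after knockout, and for RARA, whose window was the one with receptor half-sites. They were read on the strand of the gene from GRCh37, the genome build of the study, with the MANE Select starts of GENCODE. Capitals mark the half-sites of the RAR and RXR heterodimer (AGGTCA or GGGTCA, together with AGTTCA or GGTTCA, on either strand) and CCAAT boxes (either strand), which do not overlap here. ALDH1A1 lies on the minus strand and its window is chr9:75567970-75568219. ALDH1A3 lies on the plus strand with the window chr15:101419786-101420035. DHRS3 lies on the minus strand with the window chr1:12678217-12678466, and RARA on the plus strand with the window chr17:38465182-38465431.

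ALDH1A1: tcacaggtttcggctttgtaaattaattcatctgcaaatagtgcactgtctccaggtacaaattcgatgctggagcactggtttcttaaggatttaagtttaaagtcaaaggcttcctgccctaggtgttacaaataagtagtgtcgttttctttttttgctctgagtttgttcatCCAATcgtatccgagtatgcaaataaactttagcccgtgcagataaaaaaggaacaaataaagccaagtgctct
ALDH1A3: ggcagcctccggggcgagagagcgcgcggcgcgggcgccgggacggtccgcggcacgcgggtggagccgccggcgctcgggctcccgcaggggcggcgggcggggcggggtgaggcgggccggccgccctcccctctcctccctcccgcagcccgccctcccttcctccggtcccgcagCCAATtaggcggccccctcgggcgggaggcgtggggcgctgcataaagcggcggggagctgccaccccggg
DHRS3: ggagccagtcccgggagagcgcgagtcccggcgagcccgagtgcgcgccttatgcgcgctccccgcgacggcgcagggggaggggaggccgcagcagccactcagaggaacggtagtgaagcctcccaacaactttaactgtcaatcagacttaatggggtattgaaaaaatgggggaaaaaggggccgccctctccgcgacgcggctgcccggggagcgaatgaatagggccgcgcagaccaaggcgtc
RARA: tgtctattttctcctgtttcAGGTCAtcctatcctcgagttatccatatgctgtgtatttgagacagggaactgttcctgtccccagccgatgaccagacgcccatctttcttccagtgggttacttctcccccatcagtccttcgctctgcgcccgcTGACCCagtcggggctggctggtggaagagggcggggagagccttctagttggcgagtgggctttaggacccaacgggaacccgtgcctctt

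The windows of the 2 synthesis genes differed in base composition. The ALDH1A1 window held 38.4% G and C, and 0.869% of 9780 windows of the same length had as little or less. The ALDH1A3 window held 82.4%, and 97.2% of windows were at or below it. That of DHRS3, at 65.2%, stood near the median of 66.4%. A CCAAT box stood 74 bases before the start of ALDH1A1 and 71 bases before that of ALDH1A3, both on the strand of the gene, and 34.9% of all windows held at least 1. RARA held AGGTCA 230 bases before its start and TGACCC, which is GGGTCA on the opposite strand, 92 bases before it. At least 1 half-site was found in 26% of all windows. No direct repeat of half-sites spaced by 1, 2 or 5 bases was found in the windows of the 8 genes, and 0.225% of all windows held such a repeat. These matches are descriptions of letters in a window.

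The table held log2(FPKM + 1) values, where FPKM is the number of fragments per kilobase of transcript, scaled to the mapped total of the sample. Sequencing depth was not given and is unknown, so no counting error could be attached. The knockout was visible in SMARCA4 itself. Its FPKM fell to 44.3% of the control mean in MDA-MB-468 and to 32.7% in MDA-MB-231 cells, with no overlap between groups, and the remaining transcript is that of edited pools. Of the markers of MDA-MB-468 cells, EGFR, CDH1, EPCAM, KRT7 and KRT18 were higher in MDA-MB-468 control cells, with log2 differences from 1.70 for KRT7 to 5.16 for CDH1. VIM, AXL, CAV1 and FN1 were higher in MDA-MB-231 control cells, whereas CD44, listed for MDA-MB-231, was 0.89 higher on the log2 scale in MDA-MB-468 cells. ERBB2 differed by -0.05 between them. Other cell types were represented by CD14, whose values are given beside the MDA-MB-231 results, and the remaining hormone receptor, leukocyte and fibroblast markers were not analysed here.

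In control cells, the receptors stood lower in the order of these genes in one line and first in the other. In MDA-MB-468 control cells the binding protein and a synthesis enzyme came first, with mean FPKM of 645 ± 39.7 for CRABP2 and 259 ± 26.2 for ALDH1A3 (SD, n = 3). DHRS3 followed at 50.6 ± 2.84 and RARG at 33.04 ± 3.21. RXRA, RARA, ALDH1A1 and RXRB came last, at means from 22.3 down to 16.1, and each of these 4 overlapped its neighbour in the order. In MDA-MB-231 control cells the receptors came first. RXRB was at 22.2 ± 2.27 FPKM and RXRA at 19.5 ± 0.691, which overlapped, followed by RARA at 12.8 ± 0.744 and RARG at 10.96 ± 0.605. CRABP2 was at 7.48 ± 1.98, ALDH1A3 at 4.05 ± 0.265 and DHRS3 at 2.38 ± 0.939, and ALDH1A1 was listed at 0 in 2 of 3 samples. From RXRA downwards no neighbours in that order overlapped.

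**Figure D1:**
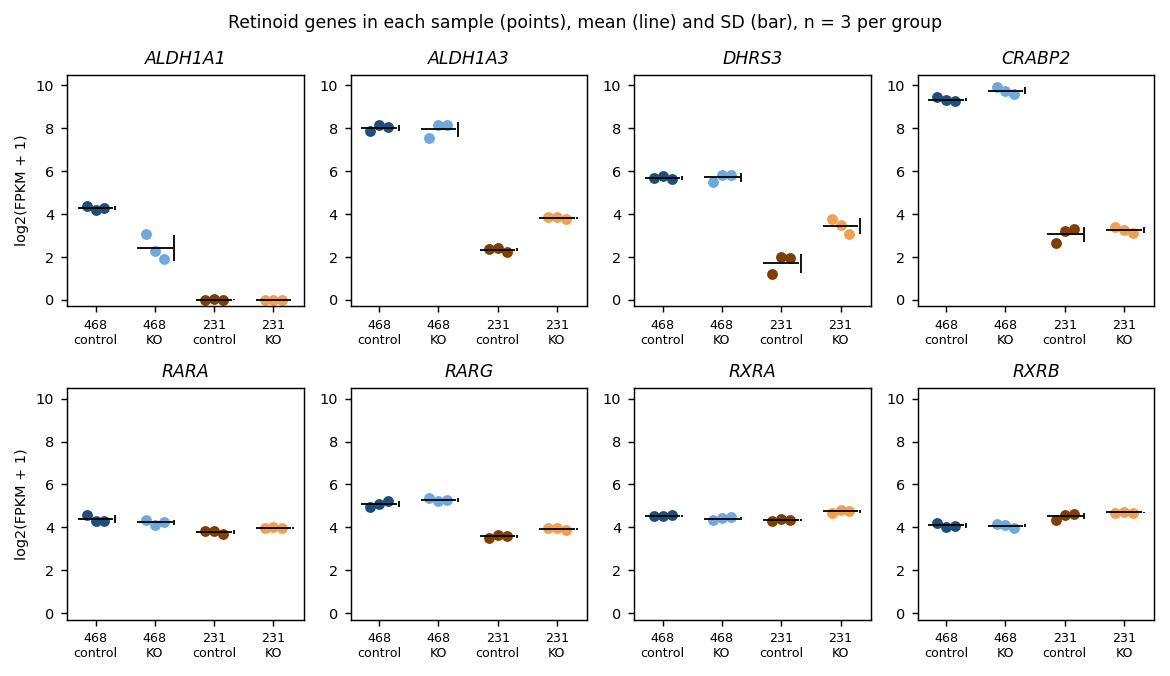
Level of each of the 8 genes in every sample, as log2(FPKM + 1) on the same vertical axis, for control and SMARCA4 KO cells. The left pair of groups in each panel is MDA-MB-468 and the right pair MDA-MB-231. Points are samples, horizontal lines group means and vertical bars the SD (n = 3). The ALDH1A1 points of MDA-MB-468 KO cells, at 1.92 to 3.09, lie below the control points, and the ALDH1A3 and DHRS3 points of MDA-MB-231 KO cells lie above theirs.

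ALDH1A1, a retinaldehyde dehydrogenase of chromosome 9, was lower in MDA-MB-468 KO cells than in their controls. The log2 values were 4.37, 4.21 and 4.28 in control replicates 1 to 3 and 3.09, 2.28 and 1.92 in KO replicates 1 to 3. Every KO sample was below every control sample, and KO replicate 1 was the highest of the KO samples. The difference of means was -1.86 (SE 0.29), and the mean FPKM was 25.4% of the control mean. Without KO replicate 1 the difference was -2.19, and without KO replicate 3 it was -1.60. In MDA-MB-231 cells ALDH1A1 was listed at 0 in every sample except control replicate 2, at 0.03, so no ratio is given.

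ALDH1A3, the retinaldehyde dehydrogenase with the higher level in both cell lines, differed after knockout in the other cell line. In MDA-MB-231 cells the log2 values were 2.35, 2.40 and 2.25 in controls and 3.85, 3.85 and 3.77 in KO cells. The groups were far apart relative to their spread, with SDs of 0.08 and 0.05. The difference was 1.49 (SE 0.06), and the mean FPKM of KO cells was 325% of the control mean. In MDA-MB-468 cells the values were 7.85, 8.13 and 8.08 in controls and 7.53, 8.13 and 8.16 in KO cells, and the groups overlapped. The difference there was -0.08 (SE 0.19), and it turned to 0.13 without KO replicate 1, the lowest sample. ALDH1A3 shares 1715 exon bases with the antisense gene ALDH1A3-AS1. The libraries were stranded, but whether counting used the strand is not stated, so reads of the pair may not be separated.

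Summed over ALDH1A1, ALDH1A2 and ALDH1A3, the FPKM of the retinaldehyde dehydrogenases came mostly from ALDH1A3. In MDA-MB-468 cells the sum was 288 ± 27.7 in controls and 261 ± 53.4 in KO cells, and the groups overlapped. ALDH1A3 made up 90.0% ± 0.562 of that sum in controls and 95.3% ± 2.63 in KO cells, while ALDH1A1 made up 6.52% ± 1.04 and 2.01% ± 1.52. In MDA-MB-231 cells the sum was 4.22 ± 0.263 in controls and 13.4 ± 0.633 in KO cells, with no overlap, and ALDH1A3 made up 96.0% ± 3.54 and 98.2% ± 1.94. Even the highest MDA-MB-231 KO sample, at 13.97 FPKM, lay far below the lowest MDA-MB-468 sample, at 199.5 FPKM.

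**Figure D2:**
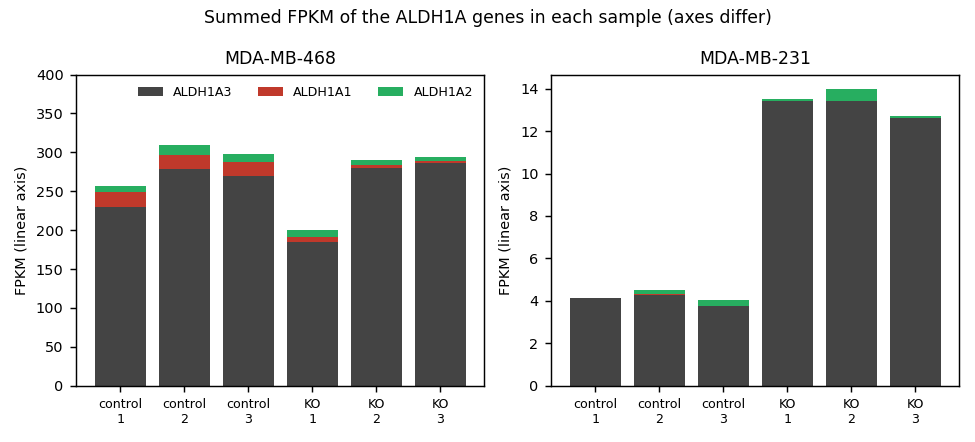
Summed FPKM of ALDH1A3, ALDH1A1 and ALDH1A2 in each sample, stacked by gene on linear axes from 0 that differ between MDA-MB-468 (left) and MDA-MB-231 (right). ALDH1A3 fills most of every bar, the red ALDH1A1 band of MDA-MB-468 cells is thinner in the KO samples, and the MDA-MB-231 KO bars reach 12.7 to 13.97 FPKM against 4.03 to 4.52 in controls.

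DHRS3, the retinal reductase, differed after knockout in MDA-MB-231 cells. The log2 values were 1.20, 1.99 and 1.96 in controls and 3.78, 3.51 and 3.07 in KO cells. All KO samples were above all controls, although both groups were wider than those of ALDH1A3, with control replicate 1 lowest and KO replicate 1 highest. The difference was 1.74 (SE 0.28), and the mean FPKM of KO cells was 427% of the control mean. It ranged from 1.48 without control replicate 1 to 1.93 without KO replicate 3. In MDA-MB-468 cells the values were 5.67, 5.77 and 5.62 in controls and 5.48, 5.82 and 5.81 in KO cells, overlapping, with a difference of 0.02 (SE 0.11). Because ALDH1A and DHRS3 enzymes act on retinal in opposite directions, the ratio of their FPKM is also given. The ratio of the ALDH1A sum to DHRS3 was 5.69 ± 0.528 in MDA-MB-468 controls and 5.04 ± 0.419 in KO cells, and 2.03 ± 0.985 in MDA-MB-231 controls and 1.38 ± 0.335 in KO cells, and the control and KO groups overlapped in both lines.

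CRABP2, the cytosolic retinoic acid carrier, was the most abundant of the 8 genes in MDA-MB-468 cells. The log2 values there were 9.43, 9.31 and 9.26 in controls and 9.93, 9.71 and 9.60 in KO cells, which did not overlap. The difference was 0.41 (SE 0.10), and the mean FPKM of KO cells was 134% of the control mean. In MDA-MB-231 cells the values were 2.64, 3.21 and 3.32 in controls and 3.41, 3.27 and 3.14 in KO cells, which overlapped. The difference was 0.21 (SE 0.19), and without control replicate 1, the lowest sample, it was 0.01.

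The receptors varied less. RARA, the receptor with the half-sites shown above, had log2 values of 4.59, 4.28 and 4.31 in MDA-MB-468 controls and 4.35, 4.09 and 4.27 in KO cells, which overlapped (difference -0.16, SE 0.11). In MDA-MB-231 cells they were 3.84, 3.82 and 3.69 in controls and 3.97, 4.03 and 3.96 in KO cells, which did not (difference 0.20, SE 0.06). RARG, the RAR typical of epithelia, ranged from 4.95 to 5.22 in MDA-MB-468 controls and from 5.21 to 5.39 in KO cells, which overlapped (difference 0.20, SE 0.09). In MDA-MB-231 cells it ranged from 3.50 to 3.65 in controls and from 3.88 to 3.97 in KO cells, without overlap (difference 0.36, SE 0.06). Among the RARs the balance therefore lay with RARG in one line only. The ratio of RARG to RARA FPKM was 1.67 ± 0.331 in MDA-MB-468 controls and 2.14 ± 0.104 in KO cells, and 0.860 ± 0.0738 in MDA-MB-231 controls and 0.964 ± 0.0329 in KO cells.

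RXRA and RXRB encode the heterodimer partners of the RARs. RXRA had log2 values of 4.52, 4.51 and 4.59 in MDA-MB-468 controls and 4.32, 4.42 and 4.46 in KO cells, all of them lower (difference -0.14, SE 0.06). In MDA-MB-231 cells the values were 4.31, 4.41 and 4.34 in controls and 4.67, 4.81 and 4.75 in KO cells, all of them higher (difference 0.39, SE 0.06). RXRA was thus the only one of the 8 genes whose groups were apart in both lines and in opposite directions. RXRB ranged from 4.03 to 4.21 in MDA-MB-468 controls and from 3.99 to 4.14 in KO cells (difference -0.02, SE 0.07), and from 4.37 to 4.63 in MDA-MB-231 controls and from 4.67 to 4.73 in KO cells (difference 0.16, SE 0.08). RXRB shares 361 exon bases with SLC39A7 and RARA 291 with another gene, each on the opposite strand.

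**Figure D3:**
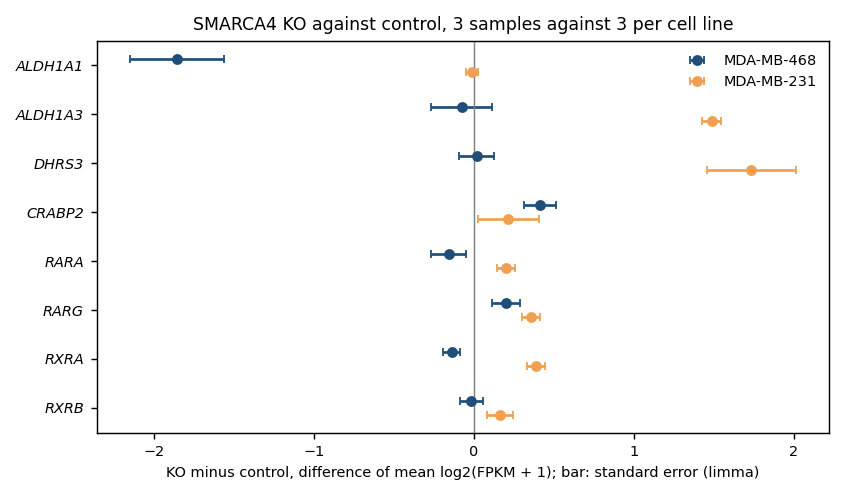
Difference of mean log2(FPKM + 1) between SMARCA4 KO and control samples for each of the 8 genes, in MDA-MB-468 (blue) and MDA-MB-231 (orange), with the standard error of limma (3 samples against 3). ALDH1A1 in MDA-MB-468 cells, at -1.86, and ALDH1A3 and DHRS3 in MDA-MB-231 cells, at 1.49 and 1.74, stand apart from the other points, which lie between -0.16 and 0.41.

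Counted over the 8 genes, control and KO samples of MDA-MB-468 cells did not overlap for 1 gene that was higher in KO cells and 2 that were lower. The same held for 17.5% and 13.5% of all genes, 31% in all. In MDA-MB-231 cells 6 were higher and 0 lower without overlap, against 16.6% and 19.4% of all genes, 36% in all. A differentially expressed gene (DEG) had a Benjamini-Hochberg adjusted p under 0.05 in limma and an absolute log2 difference over 0.5. By these limits 1 of the 8 genes, ALDH1A1, was a DEG in MDA-MB-468 cells, where it was lower. That call was lost with the replicate as a block and in 5 of the 6 fits that left out 1 sample (each control replicate, KO replicate 2 or KO replicate 3), with differences from -1.60 to -1.90 in those 5. Of all genes 2.14% were DEGs there, 1.33% higher and 0.815% lower. In MDA-MB-231 cells 2 of the 8, ALDH1A3 and DHRS3, were DEGs with higher values, and 3.7% of all genes were DEGs, 2.39% higher and 1.31% lower. ALDH1A3 kept the call in all 6 fits that left out 1 MDA-MB-231 sample, and DHRS3 in 2 of them (without control replicate 1 or KO replicate 3), with differences from 1.57 to 1.87 in the 4 others. With the replicate as a block both genes lost the call, as did all 426 DEGs of these cells. These contrasts had a part in how the genes were chosen, and nothing is read from the counts. CD14, a monocyte marker, was also higher in MDA-MB-231 KO cells, from 0.84 to 1.26 in controls to 1.87 to 2.56 in KO cells on the log2 scale. It was the only 1 of the 3 leukocyte markers in the table, the 3 fibroblast markers were not analysed here, and its summed FPKM was 0.79 to 1.39 in controls and 2.65 to 4.90 in KO cells. In MDA-MB-468 cells the FPKM of CD14 was far higher, at 46.05 to 52.86 in controls and 20.76 to 63.17 in KO cells. The markers of the lines moved too. Of the 5 markers of MDA-MB-468 cells, CDH1 was a DEG with higher values in MDA-MB-231 KO cells (0.54, limma adjusted p = 0.0442). Its level stayed near the floor, at 0.12 to 0.41 FPKM in controls and 0.62 to 1.01 in KO cells, against a mean of 44.5 in MDA-MB-468 controls. In MDA-MB-231 cells the FPKM of the 5 summed to between 519.8 and 790.5 in controls and between 768.5 and 844.3 in KO cells. None of the 5 markers of MDA-MB-231 cells was a DEG there, although VIM (-0.39, limma adjusted p = 0.0309, under the size limit), FN1 (-0.47) and AXL (-0.28) were lower and CD44 (0.30) higher without overlap. Their sum was 2387 to 2683 in controls and 2084 to 2297 in KO cells, and none of these 10 markers was at 0 in any sample. The part of these markers in the differences of MDA-MB-231 cells was not tested. In MDA-MB-468 cells none of the 10 was a DEG, and the largest difference was 1.44 for CAV1 (limma adjusted p = 0.0620).

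The difference between the control cells of the 2 lines was not the one on which the genes were selected, but the pathway was taken with earlier results of these data known, and the control samples are the same as those in the knockout comparisons. The tests below are therefore not independent evidence. ALDH1A1 passed the authors' filter on low values through MDA-MB-468 cells alone and had to differ, so it is given without a test. Of the other 7 genes, 5 were DEGs with higher values in MDA-MB-468 control cells, by limma on 3 against 3 samples, and none with lower values. The background was high. Among all genes 64.1% were DEGs in this comparison, 32.7% higher and 31.4% lower in MDA-MB-468 cells, and the removal of genes with little variation over the samples by the authors favours genes that differ between the lines. The samples of the lines did not overlap for any of these 7 genes, 6 higher and 1 lower in MDA-MB-468 cells, and neither did they for 85.5% of all genes, 43.2% higher and 42.3% lower.

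CRABP2 differed between the lines by 6.28 (SE 0.17, limma adjusted p = 1.66e-08), and its mean FPKM was 86.3 times that of MDA-MB-231 control cells. ALDH1A3 differed by 5.68 (SE 0.09, limma adjusted p = 1.57e-09), or 64.0 times in FPKM. DHRS3 differed by 3.97 (SE 0.20, limma adjusted p = 5.62e-07), or 21.2 times. For ALDH1A1 the difference was 4.28 on the log2(FPKM + 1) scale. Because the gene was listed at or near 0 in MDA-MB-231 cells, that size depends on the pseudocount, and it became 7.45 with a pseudocount of 0.1. The RARs differed less, RARG by 1.51 (SE 0.09, limma adjusted p = 1.5e-06) and RARA by 0.61 (SE 0.10, limma adjusted p = 0.000566). RXRA, at 0.19 (limma adjusted p = 0.0311), and RXRB, at -0.44 (limma adjusted p = 0.00316), stayed under the limit on the size of the difference. Without MDA-MB-231 control replicate 1, RXRB reached -0.52 (limma adjusted p = 0.00125) and became a DEG with lower values in MDA-MB-468 cells.

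**Figure D4:**
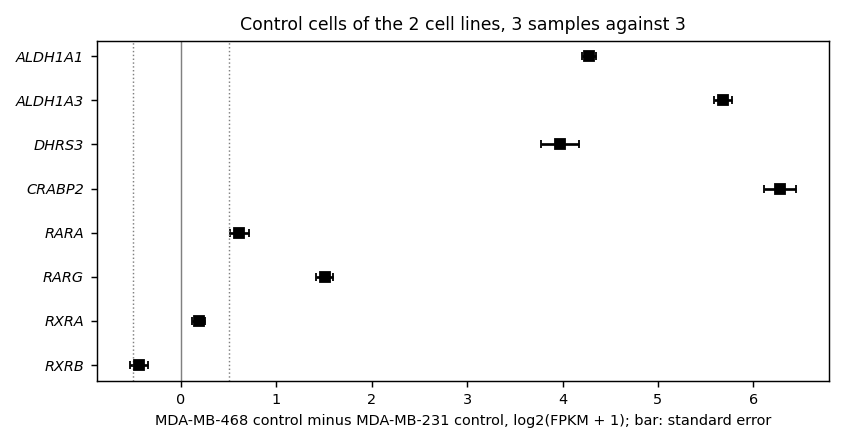
Difference of mean log2(FPKM + 1) between MDA-MB-468 and MDA-MB-231 control cells for the 8 genes, with the standard error of limma (3 samples against 3), where dotted lines mark the limit of 0.5 in either direction. CRABP2, ALDH1A3, ALDH1A1 and DHRS3 lie between 3.97 and 6.28, and the 4 receptors between -0.44 and 1.51.

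The rest of the retinoid pathway was read from 10 lists that name 97 further genes, of which 63 were in the table. Between the control cells 49 of the 63 were DEGs, 33 with higher values in MDA-MB-468 and 16 with higher values in MDA-MB-231 cells. That is 77.8%, beside 64.1% of all genes, and both shares include genes near 0 in one line. Uptake differed widely. STRA6, the cell surface retinol transporter, was 5.30 higher in MDA-MB-468 cells, whereas FABP5, which can carry retinoic acid to PPARD, was 5.02 higher in MDA-MB-231 cells (difference -5.02). STRA6 averaged 0.14 FPKM in MDA-MB-231 control cells, and FABP5 averaged 0.06 in MDA-MB-468 control cells. Genes near 0 in one line passed the authors' filter through the other line and had to differ. No p-value is therefore given for their difference between the control cells. In the interconversion of retinol and retinal, 2 genes of 8 were higher and 2 lower in MDA-MB-468 cells. RDH10, a retinol dehydrogenase, differed by 3.62 and AKR1B10, a retinal reductase, by 5.85, against -2.66 for AKR1C3 and -0.71 for RDH11. ALDH1A2, the remaining retinaldehyde dehydrogenase in the table, differed by 3.22 and CYP26B1, which degrades retinoic acid, by 1.38. In MDA-MB-231 control cells ALDH1A2 averaged 0.16 FPKM and AKR1B10 0.56. The retinyl ester genes DGAT1 and PNPLA4 were lower in MDA-MB-468 cells, with differences of -0.59 and -0.70.

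Receptors and targets further down the pathway were split. Of 10 nuclear receptors that pair with RXRs, 6 were higher and 2 lower in MDA-MB-468 control cells, led by NR4A1 (2.73) and THRB (2.68), with THRA at -0.92 and PPARD at -0.53. Of 13 coregulators 6 were higher and 4 lower, with NRIP1 at 3.41 and NCOA2 at 1.49 against TBL1X at -1.21 and NCOR1 at -0.82. All 11 retinoic acid target genes in the table were DEGs, 9 higher and 2 lower. RARRES1, a retinoic acid responsive gene, differed by 9.19 and HOXA4 by 2.81, whereas TGM2, the transglutaminase induced by retinoic acid, differed by -7.50 and RARRES2 by -3.82. RARRES1 averaged 0.13 FPKM and HOXA4 0 in MDA-MB-231 control cells, and TGM2 0.06 and RARRES2 0.20 in MDA-MB-468 control cells. Of 13 other aldehyde dehydrogenases 6 were higher and 3 lower, with ALDH3B2, listed at 0 in MDA-MB-231 control cells, at 8.03 and ALDH1L2 at 3.02 against ALDH3B1 at -1.17 and ALDH18A1 at -0.56. ALDH1L2 averaged 0.05 FPKM in MDA-MB-231 control cells. RARB, RXRG and CYP26A1 were not analysed here.

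After knockout few of these genes passed the test. In MDA-MB-468 cells 5 of 63 were DEGs, or 7.94%, beside 2.14% of all genes, and the median difference of the 63 genes was -0.09, against 0.02 for all genes. CYP2S1, a cytochrome P450 that can oxidize retinoic acid, rose by 0.61 (limma adjusted p = 0.0375), and PPARG, an RXR partner, rose by 0.56 (limma adjusted p = 0.0385). AKR1C3 fell by 1.59 (limma adjusted p = 0.0300), ALDH3A1 fell by 0.97 (limma adjusted p = 0.0399) and AKR1B10 fell by 0.52 (limma adjusted p = 0.0487). With a pseudocount of 0.1, AKR1C3 (limma adjusted p = 0.0517) and AKR1B10 (limma adjusted p = 0.0559) lost the call, while ALDH3A1, CYP2S1 and PPARG kept it. AKR1C3 was low in KO cells, at 0.42 to 1.57 FPKM, and its difference became -2.33 with that pseudocount. AKR1C3 and AKR1B10 have very similar paralogs, and their values are uncertain where reads could be shared. RARRES1 stood just outside the limits, at -0.499 (limma adjusted p = 0.0300). Same-numbered MDA-MB-468 samples deviated weakly together, and whether they were paired is uncertain. With the replicate as a block PPARG alone of the 5 stayed a DEG (limma adjusted p = 0.0449), while the others had adjusted p-values from 0.0505 for ALDH3A1 to 0.0862 for AKR1B10. None of the 63 was a DEG in 5 of the 6 fits that left out 1 MDA-MB-468 sample (each control replicate, KO replicate 2 or KO replicate 3), although 19 to 23 had an unadjusted limma p under 0.05 there, and 7 were DEGs without KO replicate 1.

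In MDA-MB-231 cells 5 of 63 genes were again DEGs, or 7.94%, beside 3.7% of all genes, with a median difference of 0.08 against -0.01 for all genes. TGM2 rose by 0.89 (limma adjusted p = 0.00781), from between 7.45 and 7.72 in controls to between 8.46 and 8.47 in KO cells. ALDH3A1 rose by 1.19 (limma adjusted p = 0.0251) and ALDH3B1 by 0.86 (limma adjusted p = 0.0331). FABP5 fell by 0.70 (limma adjusted p = 0.0180) and PPARG fell by 0.56 (limma adjusted p = 0.00982). ALDH3B1 has a close paralog in ALDH3B2, which was near 0 in these cells. TGM2 and PPARG passed in each of the 6 fits that left out 1 MDA-MB-231 sample, while 2 to 5 of the 63 genes passed in these fits. The 2 were left without control replicate 3, KO replicate 1 or KO replicate 2, and 3 without control replicate 1 or 2. The 13 coregulators had differences from 0.01 to 0.34 in these cells, and none passed the limma test, while 5 had an unadjusted p under 0.05.

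**Figure D5:**
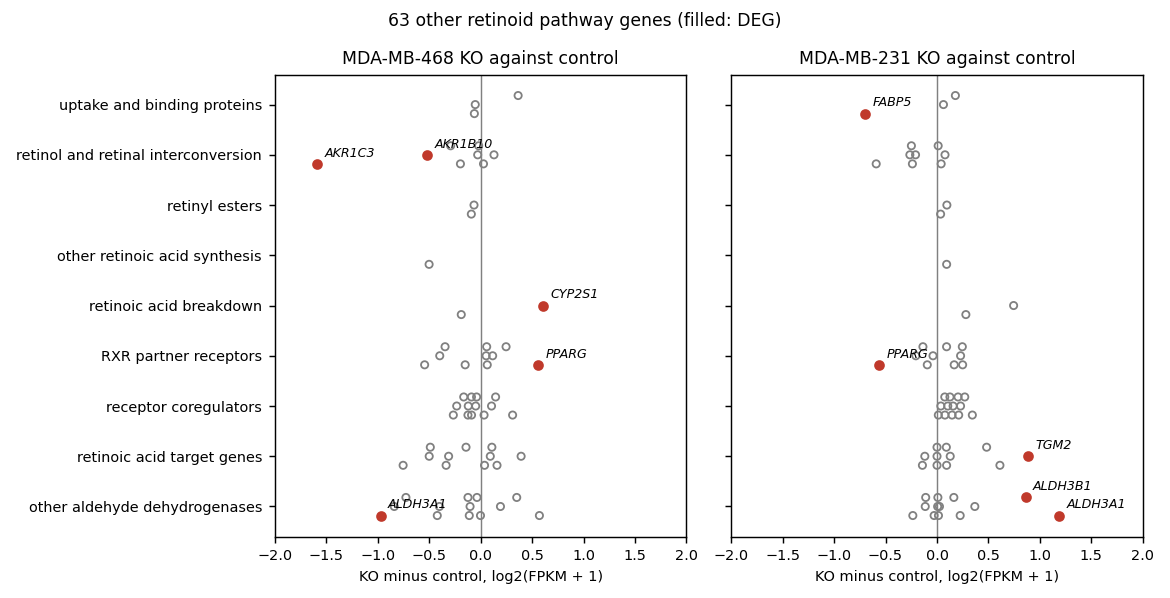
Difference of mean log2(FPKM + 1) between SMARCA4 KO and control samples of the 63 other retinoid pathway genes, by list, in MDA-MB-468 (left) and MDA-MB-231 (right). Each point is a gene, and the filled, named points are DEGs, 5 in each line, of which PPARG and ALDH3A1 are filled in both with opposite signs.

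PPARG and ALDH3A1 passed in both lines and in opposite directions. ALDH3A1 lost the MDA-MB-468 call in every fit that left out 1 sample, also without KO replicate 1 (limma adjusted p = 0.0549). In MDA-MB-231 cells it kept the call only without control replicate 2 or KO replicate 3, and its control FPKM was low, at 0.51 to 1.18. PPARG kept the MDA-MB-468 call only without KO replicate 1, and the MDA-MB-231 call in every such fit. PPARG had log2 values of 3.81, 4.02 and 4.01 in MDA-MB-468 controls and 4.36, 4.56 and 4.59 in KO cells, but 4.14, 4.19 and 4.20 in MDA-MB-231 controls and 3.62, 3.70 and 3.52 in KO cells. ALDH3A1 had 3.13, 2.55 and 2.68 in MDA-MB-468 controls and 1.91, 1.84 and 1.69 in KO cells, but 0.59, 1.12 and 0.87 in MDA-MB-231 controls and 1.96, 2.38 and 1.81 in KO cells. In all 4 comparisons control and KO samples were apart. The difference between the lines passed the limma interaction, at an adjusted p of 0.000318 for PPARG and 0.000611 for ALDH3A1. Of all genes 14.7% passed it, 7.91% with the larger value in MDA-MB-468 cells and 6.83% with the smaller. Both genes were picked by their opposite knockout changes, which enter this contrast. Their passing is therefore a description and not separate support.

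The genes most like the synthesis enzymes and DHRS3 were found by the Pearson correlation of log2 values over the 12 samples, a measure dominated by the difference between the lines and given as a description. The 5 nearest to ALDH1A1 were XBP1, HSD17B2, RP11-91J3.3, SDC1 and CYP4Z1, with r from 0.9956 to 0.9975. Like ALDH1A1, HSD17B2 averaged 4.30 in MDA-MB-468 controls and 2.69 in KO cells and was near 0 in MDA-MB-231 cells, and RP11-91J3.3 averaged 4.02 and 2.27 and was listed at 0 in all MDA-MB-231 samples. Among the genes nearest to ALDH1A3 were LPHN1, ASS1, MGAT4A and MYO5B, with r from 0.9952 to 0.9966. ASS1 averaged 8.38 in both MDA-MB-468 groups, 3.18 in MDA-MB-231 controls and 4.33 in KO cells. The 5 nearest to DHRS3 were PCDH1, FAM83H, DBNDD1, TSPAN33 and CXCL16, with r from 0.9907 to 0.9951. PCDH1 averaged 5.57 in MDA-MB-468 controls, 5.71 in KO cells, 1.73 in MDA-MB-231 controls and 3.55 in KO cells, close to the values of DHRS3.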

How the data were processed

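RNA was sequenced from 12 samples, 3 per group. Before deposit, the authors used Trimmomatic for trimming, aligned the reads to hg19 with STAR, estimated FPKM with RSEM, removed genes with a mean or SD of FPKM under 1, and deposited log2 values of FPKM + 1 for 11529 genes. No gene had a mean FPKM under 1.07 or an SD under 1.00. FPKM was recovered as 2 raised to the value, minus 1. Depth is unknown, and the FPKM of a sample summed to between 673808 and 715537.

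limma 3.58.1 (R 4.3.3) was fitted on all rows without a further filter, per cell line or between control groups, with Benjamini-Hochberg adjustment over 11529 genes. The limits for a DEG were 0.05 on the adjusted p and 0.5 on the absolute log2 difference, and the interaction was tested in 1 fit of all 12 samples at adjusted p under 0.05. On simulated data with 200 genes changed by 1.5 on the log2 scale, 197 (MDA-MB-468 knockout), 198 (MDA-MB-231 knockout), 191 (interaction) and 199 (control cells) were recovered among 11529 genes. False calls numbered 6, 9, 15 and 5 in the same order. The simulated noise was independent between samples, so these numbers do not show how well calls hold in the real samples.

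Same-numbered control and KO samples deviated weakly together in MDA-MB-468 cells (r = 0.254, 0.161 and 0.119 over genes) and not in MDA-MB-231 cells (-0.0543, 0.0741 and -0.115). MDA-MB-468 control replicate 3 and KO replicate 2, which differ in number, had r = 0.131, so the pairing is uncertain. The replicate numbers come from the sample titles. The p-numbers in the sample descriptions, whose meaning is not given, are offset by 1 from them in MDA-MB-468 cells, and the samples there that share a p-number had r = -0.232 and 0.029. Genes named are the 8 genes, list genes that were DEGs after knockout, at most 2 per list and direction between control cells, 5 nearest genes each for ALDH1A1, ALDH1A3 and DHRS3, SMARCA4 and cell type markers. Of the genes this rule names, 2 are not reported here. RARRES1 was named in the knockout comparison after its value was seen. Genes and lists were chosen with earlier results of these data known. Alternatives were another pseudocount (0.1), a filter (mean log2 value over 2), an intensity trend, scaling to the 75th percentile, quantile normalization, 1 fit of all samples, the replicate block and leaving out each sample. Promoter windows came from GRCh37 and GENCODE release 44 (Python 3.11.15).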

Additional observations from a re-analysis of the deposited data

Results flagged for a closer look

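The knockout difference of MDA-MB-468 less the one of MDA-MB-231 was past the test of the limma interaction for 14 of the 63 genes of the retinoid lists, 4 above and 10 below 0. That is 22.2%, beside 14.7% of all genes. Among the list genes that were DEGs after knockout it passed for 5. These genes were picked by knockout changes that enter the contrast, so their passing is a description and not separate support. The difference was 1.122 for PPARG, -2.157 for ALDH3A1, -1.379 for AKR1C3, 0.640 for FABP5 and -0.727 for TGM2, on the log2 scale. FABP5 and TGM2 were close to 0 in all MDA-MB-468 samples, at most 0.08 and 0.26 on the log2(FPKM + 1) scale. For RXRA all MDA-MB-468 KO samples were below their controls and all MDA-MB-231 KO samples above theirs, with a difference between the lines of -0.530, which is given without a test because this contrast had a part in the choice of the genes.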

How the results depend on the processing

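Of 393 values recomputed under an alternative, 360 stayed within the limits set for them, 32 moved and 1 gained a call. The 360 are not a measure of how well the calls hold. The filter, the intensity trend, the fit of all 12 samples and the replicate block cannot alter a log2 difference, so knockout differences counted there in advance. Knockout differences were labelled on size alone, so ALDH1A1 in MDA-MB-468 cells counts among the 360 also where it lost its call. A reversed direction was labelled only for the differences between control cells, where 0 arose. Knockout differences near 0 could change sign within the spread of the samples and still count among the 360. In MDA-MB-468 cells this held for ALDH1A3 (-0.08, and 0.13 without KO replicate 1), DHRS3 and RXRB. With 1 fit of all 12 samples there were 537 DEGs in place of 247 in MDA-MB-468, and 8 list genes in place of 5 in MDA-MB-231 cells, where the spread is shared over more samples. With the replicate block 1 list gene passed in MDA-MB-468, against 0 in MDA-MB-231, where the numbers did not pair the samples and the block left 0 of 426 DEGs, with 3126 genes at an unadjusted limma p under 0.05. Leaving out 1 sample gave 0 to 474 DEGs and 0 to 7 list genes in MDA-MB-468 cells, 99 to 311 DEGs and 2 to 5 list genes in MDA-MB-231 cells, and 924 to 1897 genes in the interaction, in place of 1699. The 0 arose without MDA-MB-468 control replicate 2 or KO replicate 2, when 2288 and 2023 genes had an unadjusted limma p under 0.05, and 474 without KO replicate 1. The ALDH1A3 difference in MDA-MB-231 cells was 1.68 with a pseudocount of 0.1 and 1.40 after quantile normalization. RXRB between the control cells became a DEG at -0.52 without MDA-MB-231 control replicate 1. Scaling to the 75th percentile changed the split of the interaction from 912 higher and 787 lower to 671 and 941. The cause of these changes was not tested. Low values such as ALDH1A1 in MDA-MB-231 cells depend on an unknown depth.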
